A study of Mus musculus with 6 samples.

Results

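Potassium channel genes were examined in the stellate ganglia of 3 mice that had undergone transverse aortic constriction (TAC) and of 3 sham-operated mice. The stellate ganglion holds the cell bodies of the sympathetic neurons that innervate the heart, and TAC is a surgical band on the aortic arch that loads the left ventricle with excess pressure. All animals were male C57/Bl6 mice killed 8 weeks after the operation, their age is not given in the sources used here, and each array carried the RNA of both ganglia of 1 animal. The members were all genes for which a probe set of the mouse array carried a single platform symbol beginning with Kcn, the root for potassium channel subunits. There were 84 such genes with 167 probe sets, among 18193 genes with a single symbol and 45037 probe sets. Of the 84, 81 encode pore-forming or accessory subunits, and 3 are noncoding transcripts named after a channel gene. A probe set was tested where its log2 intensity averaged at least 4 over the 6 arrays, and the probe set with the highest mean stood for its gene. This left 31 member genes, or 36.9%, whereas 54.7% of all named genes passed. Values of single arrays are log2 intensities and are given in the order of the letters A, B and C in the array titles, sham first.

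Potassium channels let potassium ions leave a neuron and thereby set its resting potential, repolarise each action potential and limit how often it fires. Voltage-gated (Kv) channels open on depolarisation, calcium- and sodium-activated channels open when those ions accumulate, inward rectifiers (Kir) and K2P leak channels act near the resting potential, and accessory subunits tune the pore proteins. In sympathetic neurons the M-current, carried by Kv7 (Kcnq) channels and closed by muscarinic and peptide receptors, is the classical brake on repetitive firing, and A-type Kv4 channels delay the first spike.

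No potassium channel gene was called different between TAC and sham ganglia, and the differences that came nearest were higher Kcnq5, Kcnd3, Kcnk2, Kcnk1 and Kcnj13 and lower Kcnc4. Of the 31 tested genes, 0 passed an adjusted p of 0.05 in limma, as did 0% of all 9955 tested genes. Members' adjusted p-values ran from 0.512 to 0.995. At an unadjusted p under 0.05, 5 members were higher in TAC, against 5.43% of all tested genes, and 1 was lower, against 3.32%. Together these were 6 of 31, or 19.4%, against 8.76% of all tested genes. That count changed with the arrays and the floor. Without sham A, B and C in turn it was 4, 1 and 2, beside 8.67%, 7.05% and 5.88% of all tested genes. Without TAC A, B and C in turn it was 5, 4 and 3, beside 10.2%, 6.73% and 6.18%. With a floor of 6 it was 2 of 21, or 9.52%, against 9.70% of all tested genes. The 3 TAC arrays all lay above the 3 sham arrays for 3 members, Kcnq5, Kcnj13 and Kcnk2, beside 8.78% of all tested genes, and all below them for 2 members, Kcnc4 and Kcnk3, beside 9.09%. The median TAC minus sham difference of the members was -0.0050 on the log2 scale, with 15 genes higher and 16 lower on average, and the median of all tested genes was 0.02. Without TAC B, the members' median was 0.07.

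Interval widths show how precisely each difference was measured. The 95% interval of the difference lay within 1 log2 unit of 0, a 2-fold change either way, for 30 of the 31 members. It lay within 0.5 log2 units, or 1.41-fold, for 16. Kcnd3 was the member whose interval reached past 2-fold. The spread between arrays of the same group was somewhat wider for channel genes, with a median within-group SD of 0.20, than for all tested genes, at 0.14.

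**Figure D1:**
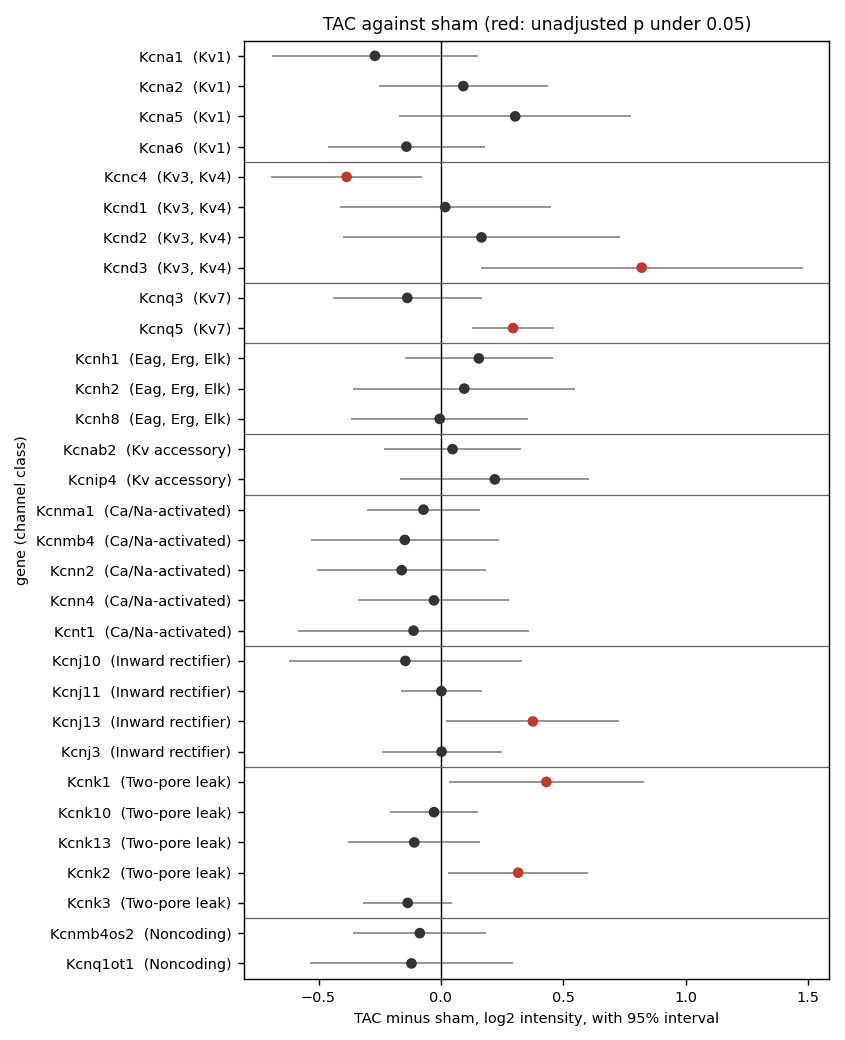
TAC minus sham difference in log2 intensity (x axis) with limma's 95% interval (bars) for the 31 tested Kcn genes (y axis), grouped by channel class, from 3 arrays per group. Red points mark an unadjusted p under 0.05, which 6 genes had, and Kcnd3 has the widest interval, from 0.16 to 1.48.

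As to the arrays themselves, the sympathetic neuron markers were bright, with tyrosine hydroxylase (Th) at 13.55 to 13.88, and all 12 named neuron markers passed the floor. Their summed linear intensity ranged from 134383 to 143646 in sham and from 148496 to 157391 in TAC ganglia. Without Npy the sums overlapped, at 121891 to 129082 in sham and 127122 to 131670 in TAC. Of the other 11 markers 6 were higher and 5 lower on average. Th, Snap25 and Slc18a2 were higher by 0.24, 0.23 and 0.29 with groups apart, and the largest fall was -0.10, in Slc6a2. In whole ganglia, fewer cells of a type and less RNA per cell cannot be told apart, and the part of these markers in the channel values was not tested. For the satellite glia and Schwann cell list, 8 of 9 named markers passed the floor, Gfap being under it. The sum of that list ranged from 24627 to 26789 in sham and from 18703 to 24971 in TAC ganglia, with the lowest value on TAC B. Fabp7, which made up 47.2% to 64.8% of that sum, set this minimum. Without it the sums were 9401 to 10778 in sham and 9493 to 11074 in TAC, with 9873 on TAC B. Of the other 8 named markers, 3 were lowest on TAC B. Of 8 mural cell markers 5 passed the floor. The sum of all 8 was 1969 to 2042 in sham and 2106 to 2935 in TAC, highest on TAC B. Rgs5, which made up most of that sum, was at 10.44 to 10.59 in sham and 10.60 to 11.07 in TAC. Of the markers over the floor, Cspg4 had a lower mean in TAC, at -0.42, and the others a higher one. Cspg4 was lowest on TAC B, at 5.85. Myh11, Notch3 and Des were under the floor. The skeletal muscle sum spanned 77.3 to 1269.6 and the fat sum 1593 to 7978 over the 6 arrays, with fat highest on sham C and TAC B. TAC B also had the lowest mean correlation with the other arrays, at 0.984 against 0.987 to 0.990.

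Channel genes were often lowest on TAC B. It held the lowest of the 6 values for 13 of the 31 members, or 41.9%, and for 22.7% of all tested genes. The 13 were Kcna1, Kcna6, Kcnc4, Kcnd1, Kcnq3, Kcnh8, Kcnab2, Kcnma1, Kcnmb4, Kcnn4, Kcnt1, Kcnj10 and the noncoding Kcnmb4os2. The median deviation of the members from their own 6-array means was -0.12 on TAC B and -0.06 to 0.08 on the other arrays. Over all tested genes it was 0.0021 on TAC B. Without TAC B, Kcnq3 differed by -0.0020, Kcnma1 by -0.0071 and Kcnmb4 by 0.0015. Others of the 13 kept a lower mean in TAC without it, with Kcnc4 at -0.25, Kcna1 at -0.17, Kcna6 at -0.10 and Kcnmb4os2 at -0.04. Kcnj10, Kcnn4 and Kcnt1 then had a higher mean, with Kcnj10 at 0.07.

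**Figure D2:**
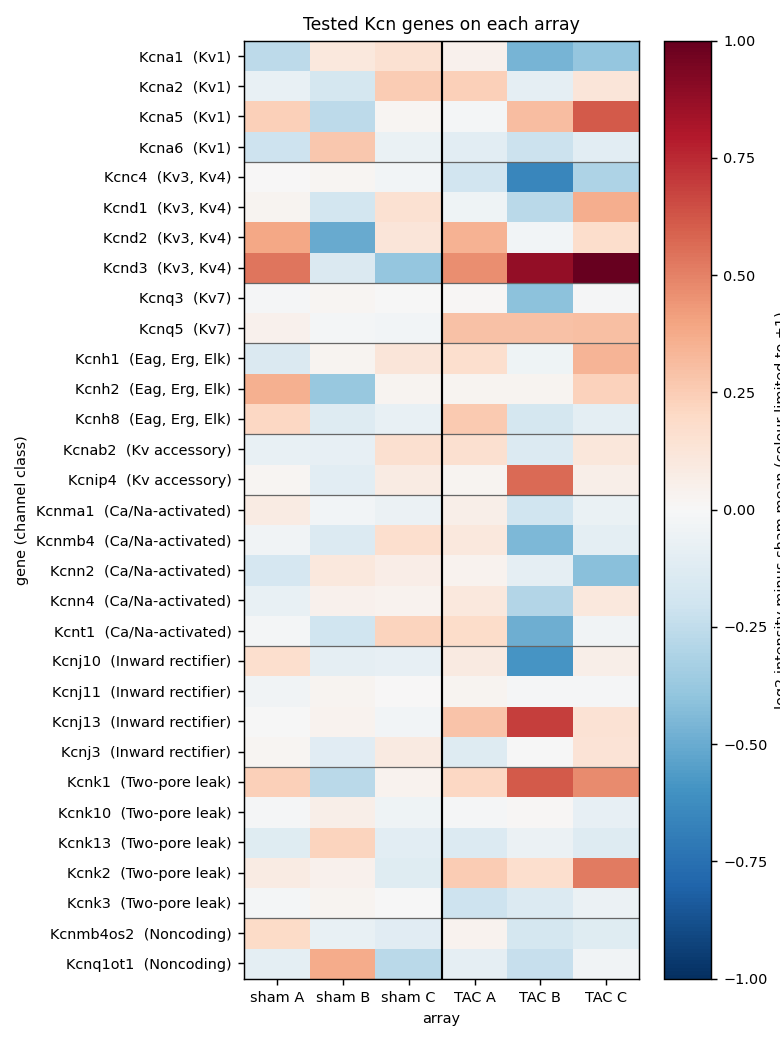
Log2 intensity minus the gene's sham mean (colour, limited to 1 unit either way) for the 31 tested Kcn genes (rows, by channel class) on the 3 sham and 3 TAC arrays (columns). TAC B is the lowest array for 13 genes, and the single strongest red cell is Kcnd3 on TAC C.

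Among the Kv7 subunits that carry the M-current, Kcnq5 measured 9.81, 9.75 and 9.75 in the sham ganglia and 10.06, 10.06 and 10.07 after TAC. The groups did not overlap, and the TAC values were nearly identical (SD 0.0074, n = 3). The means were 9.77 ± 0.04 and 10.06 ± 0.01 (SD, n = 3), a difference of 0.29 (SE 0.07, 95% interval 0.13 to 0.46) or 1.23-fold. With limma's unadjusted p = 0.00457 and adjusted p = 0.512 it had the smallest p of the members and was not called. Other probe sets of Kcnq5 were dimmer and more variable, at 0.19 (SE 0.36) and -0.0098 (SE 0.34). When the probe sets of the gene were averaged, the difference was 0.16 (unadjusted p = 0.387).

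Kcnq3, a principal partner in the M-channel, measured 11.92, 11.95 and 11.93 in the sham ganglia and 11.95, 11.53 and 11.92 after TAC. TAC A and TAC C lay at the level of the sham arrays, and TAC B lay below them. The difference was -0.14 (SE 0.13, 95% interval -0.44 to 0.17). A second Kcnq3 probe set, under the floor at a mean of 3.02, was at -0.35 and also lowest on TAC B, at 2.49. Kcnq1, the cardiac and epithelial member, stayed under the floor at a mean log2 of 2.66.

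The A-type pore subunit Kcnd3 showed the largest difference of the 31 members. It measured 5.58, 4.90 and 4.66 in the sham ganglia and 5.51, 5.93 and 6.16 after TAC. The groups overlapped, since sham A lay above TAC A. The means were 5.05 ± 0.48 and 5.86 ± 0.33 (SD, n = 3), a difference of 0.82 (SE 0.27) or 1.76-fold, with limma's unadjusted p = 0.0221 and adjusted p = 0.542. The difference was 1.09 without sham A and 0.63 without sham C. The other 3 probe sets of Kcnd3 had means of 2.39 to 2.79, under the floor, and differences of -0.11 to -0.03.

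Its family members differed by less. Kcnd2, also an A-type subunit, measured 7.20, 6.31 and 6.93 in the sham ganglia and 7.16, 6.79 and 6.98 after TAC. All 3 TAC values lay inside the sham range, and the difference was 0.17 (SE 0.23). A second Kcnd2 probe set was at 0.08. Kcnd1, the remaining Kv4 gene, differed by 0.02 (SE 0.18).

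Kcnc4, a fast-inactivating Kv3 subunit that shortens action potentials, was the member with the largest lower mean. It measured 9.87, 9.89 and 9.84 in the sham ganglia and 9.67, 9.21 and 9.55 after TAC. Every TAC array lay below every sham array, with the lowest value on TAC B. The means were 9.86 ± 0.03 and 9.48 ± 0.24 (SD, n = 3), a difference of -0.39 (SE 0.13), or 1.31-fold lower, with limma's unadjusted p = 0.0222 and adjusted p = 0.542. Without TAC B it was -0.25. This probe set carries the suffix by which the manufacturer marks probes that may read more than 1 transcript. The other Kcnc4 probe set was at -0.02 (SE 0.07), and averaging both gave -0.20 (unadjusted p = 0.0635). Kcnc1 and Kcnc2 were under the floor, at means of 3.12 and 3.58.

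**Figure D3:**
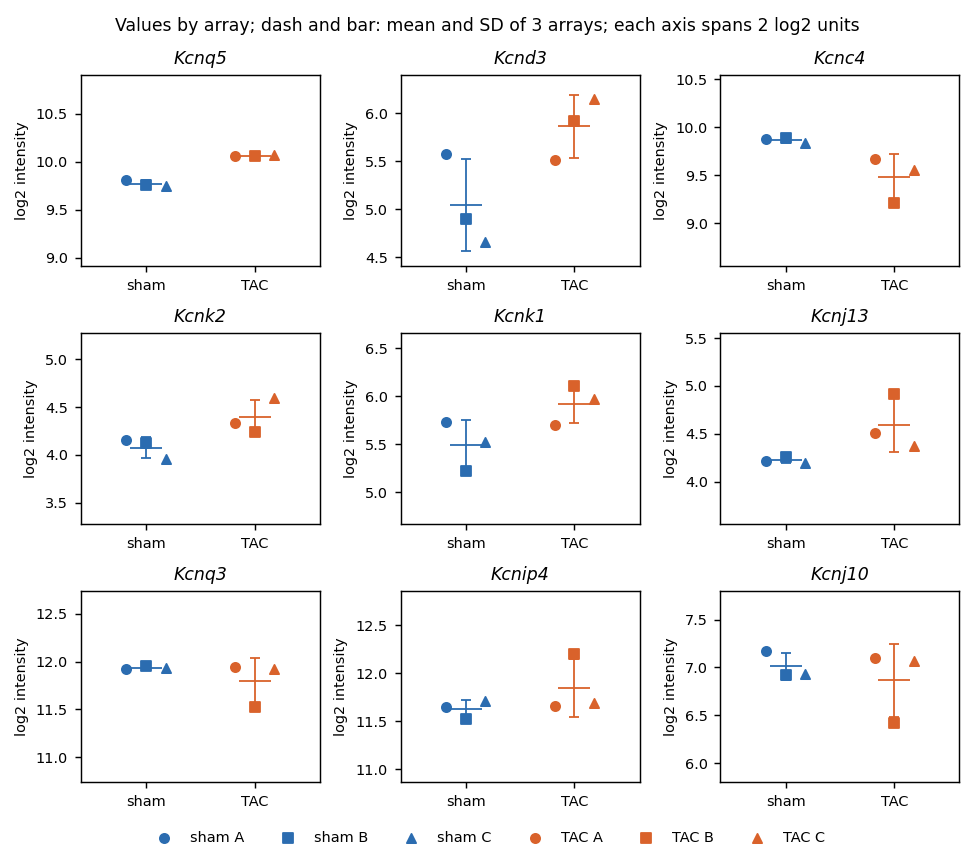
Log2 intensity (y axes, each spanning 2 units) of 9 Kcn genes on the sham (blue) and TAC (orange) arrays, with letter A as circle, B as square and C as triangle, and mean and SD of 3 arrays as dash and bar. The groups are apart for Kcnq5, Kcnc4, Kcnk2 and Kcnj13, overlap for Kcnd3 and Kcnk1, and for Kcnq3, Kcnip4 and Kcnj10 the array TAC B lies away from the other 5.

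Of the Kv1 subunits, which include the low-threshold channels of the axon, 4 of 7 named genes passed the floor. Kcna1 measured 10.52, 10.88 and 10.93 in the sham ganglia and 10.82, 10.32 and 10.39 after TAC. TAC B and TAC C lay below the sham range and TAC A inside it. The difference was -0.27 (SE 0.18, limma's unadjusted p = 0.172), and other Kcna1 probe sets were at -0.07 and -0.0033. Kcna2, its usual partner, measured 9.51, 9.40 and 9.83 in the sham ganglia and 9.82, 9.50 and 9.71 after TAC. Those groups overlapped throughout, with a difference of 0.09 (SE 0.14).

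Kcna6 measured 8.56, 9.04 and 8.70 in the sham ganglia and 8.66, 8.55 and 8.66 after TAC, a difference of -0.14 (SE 0.13). Kcna5, at 4.18, 3.67 and 3.96 in the sham ganglia and 3.92, 4.25 and 4.55 after TAC, sat at the floor itself. Its sham mean of 3.94 was under 4, so its difference of 0.30 (SE 0.20) is uncertain. Kcna3, Kcna4 and Kcna7 were under the floor, at means of 3.19 to 3.27.

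The ether-a-go-go family was represented by 3 of 6 named genes. Kcnh1 measured 7.81, 7.98 and 8.07 in the sham ganglia and 8.12, 7.91 and 8.29 after TAC. TAC A and TAC C lay above every sham array and TAC B did not. The difference was 0.15 (SE 0.13), and a second probe set was at 0.07. Kcnh2, which encodes the ERG channel known from cardiac repolarisation, measured 6.58, 5.84 and 6.25 in the sham ganglia and 6.25, 6.25 and 6.45 after TAC. All TAC values lay inside the sham range, with a difference of 0.09 (SE 0.19). Kcnh8 differed by -0.0050 (SE 0.15).

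Accessory subunits were mostly dim, with 2 of 12 named genes over the floor, and none of the 9 named silent Kv subunits passed. Kcnip4, a calcium-binding partner of Kv4 channels, measured 11.64, 11.52 and 11.71 in the sham ganglia and 11.65, 12.20 and 11.69 after TAC. TAC B alone lay above the sham range. The difference was 0.22 (SE 0.16), and it was 0.04 without TAC B. The other Kcnip4 probe sets were also highest on TAC B, at 10.24 and 9.26, and differed by 0.25 and 0.35. Kcnab2, a cytoplasmic beta subunit of Kv1 channels, differed by 0.05 (SE 0.12). A second Kcnab2 probe set, under the floor at a mean of 3.44, was at 0.49. Its groups barely parted, with sham B at 3.463 and TAC B at 3.470.

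**Figure D4:**
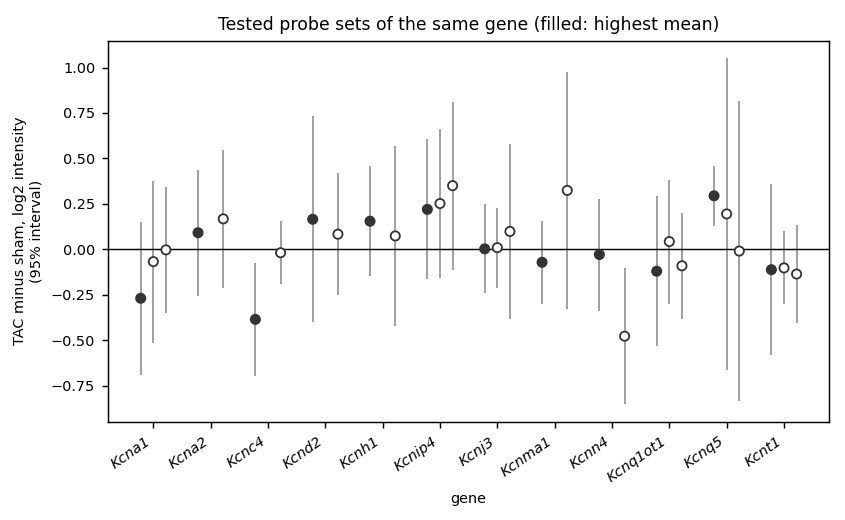
TAC minus sham difference in log2 intensity with 95% interval (y axis) for the 12 Kcn genes with more than 1 tested probe set (x axis), 3 arrays per group, where the filled point is the probe set with the highest mean. Probe sets of 9 genes share a sign, and those of Kcnma1, Kcnq1ot1 and Kcnq5 do not.

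All 5 tested genes of the calcium- and sodium-activated class had lower means in TAC, by 0.03 to 0.16 on the log2 scale, and none had an unadjusted p under 0.05. Of all tested genes, 45.0% had a lower mean. TAC B was the lowest array for 4 of the 5, and without it 2 were lower and 3 higher, with Kcnn4 at 0.10 and Kcnt1 at 0.07. Kcnma1, the pore of the large-conductance BK channel, measured 8.39, 8.28 and 8.24 in the sham ganglia and 8.36, 8.10 and 8.23 after TAC. The groups overlapped, with a difference of -0.07 (SE 0.10, 95% interval -0.30 to 0.16). Its second probe set was at 0.32 (SE 0.27), with sham values from 5.56 to 6.70.

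Kcnmb4, the neuronal BK beta subunit, measured 9.79, 9.69 and 9.99 in the sham ganglia and 9.93, 9.38 and 9.73 after TAC, a difference of -0.15 (SE 0.16). Kcnn2, a small-conductance SK channel of the afterhyperpolarisation, measured 6.57, 6.86 and 6.81 in the sham ganglia and 6.78, 6.65 and 6.33 after TAC. TAC C alone lay below the sham range, and the difference was -0.16 (SE 0.14). Kcnt1, a sodium-activated channel, differed by -0.11 (SE 0.20). Its other probe sets differed by -0.10 (SE 0.08) and -0.14 (SE 0.11). Each had groups that did not overlap, as did 17.9% of all tested probe sets. On the probe set at -0.14 the groups barely parted, with sham A at 5.2742 and TAC A at 5.2739, and TAC B was lowest, at 4.93.

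Kcnn4, the intermediate-conductance channel, differed by -0.03 (SE 0.13) on the probe set with the highest mean. A dimmer Kcnn4 probe set measured 5.92, 6.30 and 6.02 in the sham ganglia and 5.62, 5.83 and 5.36 after TAC. There every TAC array lay below every sham array, with a difference of -0.48 (SE 0.16, limma's unadjusted p = 0.0200, adjusted p = 0.542). The pair of probe sets therefore gave different sizes for the same gene. Kcnn1 and Kcnn3 were under the floor, at means of 2.94 and 2.40.

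Among the inward rectifiers, 4 of 15 named genes passed the floor. Kcnj13 measured 4.22, 4.26 and 4.20 in the sham ganglia and 4.51, 4.92 and 4.37 after TAC. The groups did not overlap, with TAC B highest, although all values lay within 1 log2 unit of the floor. The difference was 0.38 (SE 0.15) or 1.30-fold, with limma's unadjusted p = 0.0406 and adjusted p = 0.546, and it was 0.22 without TAC B. Kcnj13 is known from epithelia such as the retinal pigment epithelium and choroid plexus.

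Kcnj3, a subunit of the G protein-gated GIRK channels, measured 7.73, 7.60 and 7.80 in the sham ganglia and 7.59, 7.71 and 7.85 after TAC. The group means were alike to 0.0024 (SE 0.10, 95% interval -0.24 to 0.25). Its GIRK partners Kcnj5, Kcnj6 and Kcnj9 were under the floor, at means of 2.73, 3.03 and 2.93. Kcnj11, the pore of the ATP-sensitive channel, had the narrowest range of the members, 8.20 to 8.26 over all 6 arrays, with a difference of 0.0016 (SE 0.07).

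Kcnj10, the potassium-buffering channel of satellite glia, measured 7.18, 6.93 and 6.93 in the sham ganglia and 7.10, 6.43 and 7.07 after TAC. TAC B alone lay below the sham range. The difference was -0.15 (SE 0.20), and 0.07 without TAC B. Among glial markers, Fabp7 was also lowest on TAC B, at 13.11 against 13.73 to 14.08 on the other arrays. So were 3 of the other 8 named, Mbp, S100b and Foxd3. Glul, at 11.58, and the dim Gfap were highest there. The part of the glial markers in the Kcnj10 value was not tested. Kcnj8, the vascular mural cell channel, was under the floor at 2.60.

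The K2P leak channels held 5 tested genes of 12 named. Kcnk2, a mechanosensitive TREK channel, measured 4.16, 4.12 and 3.95 in the sham ganglia and 4.33, 4.24 and 4.60 after TAC. The groups did not overlap, but the sham mean of 4.08 was close to the floor. The difference was 0.31 (SE 0.12) or 1.24-fold, with limma's unadjusted p = 0.0355 and adjusted p = 0.542. It was 0.21 without TAC C.

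Kcnk1, the weakly conducting TWIK channel, measured 5.73, 5.22 and 5.53 in the sham ganglia and 5.70, 6.11 and 5.97 after TAC. TAC A lay inside the sham range and the other TAC arrays above it. The difference was 0.43 (SE 0.17) or 1.35-fold, with limma's unadjusted p = 0.0381 and adjusted p = 0.545, and a dim second probe set was at 0.24. Kcnk3, the acid-sensitive TASK channel, measured 5.41, 5.46 and 5.43 in the sham ganglia and 5.23, 5.30 and 5.38 after TAC. Every TAC value was lower, by 0.14 on average (SE 0.08, limma's unadjusted p = 0.120).

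Kcnk13 measured 5.34, 5.68 and 5.36 in the sham ganglia and 5.33, 5.40 and 5.33 after TAC. The sham mean was raised by sham B, and the difference was -0.11 (SE 0.11). Kcnk10, a relative of Kcnk2, differed by -0.03 (SE 0.07). The noncoding transcripts gave -0.12 (SE 0.17) for Kcnq1ot1, an antisense RNA of the imprinted Kcnq1 region, and -0.09 (SE 0.11) for Kcnmb4os2.

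The other 53 member genes were under the floor, with mean log2 intensities of 1.49 to 3.61. GCRMA gives no detection call and a dim probe set may be a poor probe, so a gene under the floor is not shown to be absent. The values next to the floor were 4.09 for Kcna5 and 4.23 for Kcnk2 inside it, and 3.61 for Kcnh5 and 3.58 for Kcnc2 outside it. Among the probe sets that stood for a dim gene, that of Kcnh5 alone had an array over the floor, at 4.06 on sham B. Another Kcnj6 probe set reached 4.44 on sham C and was 2.58 to 2.71 on the other 5 arrays. Besides those named above, the dim subunit genes were Kcnh3 and Kcnh7, the silent subunits Kcnf1, Kcng1, Kcng2, Kcng4, Kcns1, Kcns2, Kcns3, Kcnv1 and Kcnv2, and the accessory genes Kcnab1, Kcnab3, Kcnip1, Kcnip2, Kcnip3, Kcne1, Kcne1l, Kcne2, Kcne3 and Kcne4. They also included Kcnmb1, Kcnmb2, Kcnt2 and Kcnu1 of the ion-activated class, the inward rectifiers Kcnj1, Kcnj2, Kcnj4, Kcnj12, Kcnj14, Kcnj15 and Kcnj16, and the leak channels Kcnk4, Kcnk5, Kcnk6, Kcnk7, Kcnk12, Kcnk15 and Kcnk16. The remaining dim symbol was the noncoding Kcnmb4os1.

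**Figure D5:**
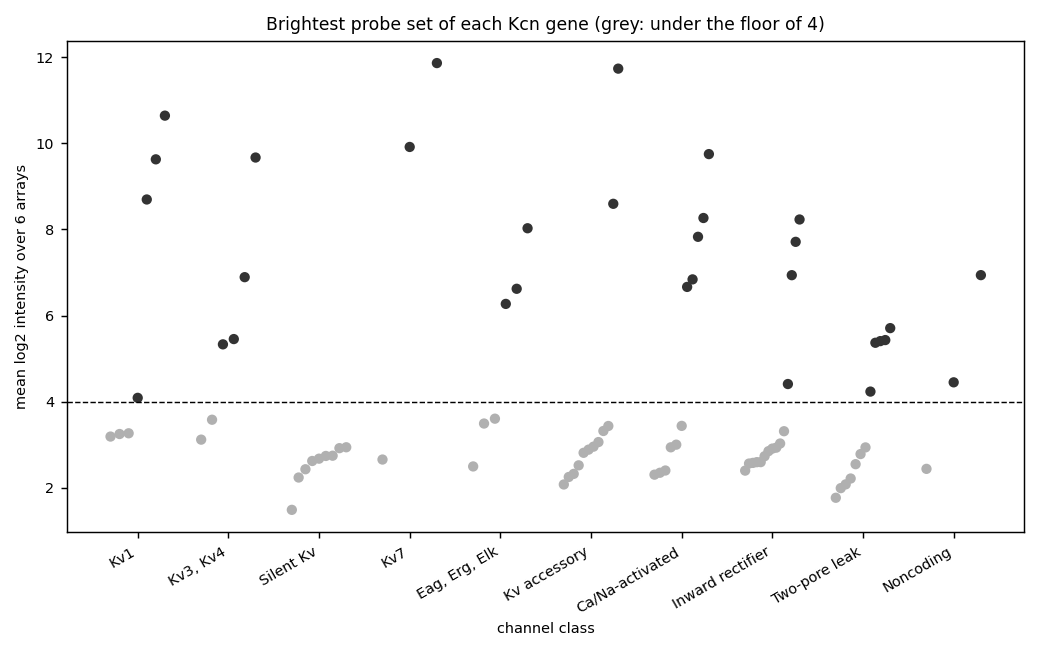
Mean log2 intensity over the 6 arrays (y axis) of the probe set with the highest mean for each of the 84 Kcn genes, by channel class (x axis), with the floor of 4 as a dashed line. Black points are the 31 tested genes and grey points the 53 under the floor, and intensities of different probe sets do not rank the amounts of their transcripts.

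Genes that act with potassium channels under other symbols were read from 4 lists. Of 39 tested genes, 0 were called, 4 had an unadjusted p under 0.05 and were higher in TAC, and 0 were lower at that p. These were 10.3%, near the 8.76% of all tested genes. The groups did not overlap for 8 of the 39, or 20.5%, near the 17.9% of all tested genes. Of the 4 genes at that p, 3 belonged to the anchors that cluster Kv1 and Kv7 channels on axons, of which 10 of 12 were tested. In that list 4 genes had groups apart, all higher in TAC, and 3 had a lower mean. Cntnap2, which assembles the Kv1 cluster beside the node of Ranvier, measured 7.88, 7.33 and 7.79 in the sham ganglia and 8.07, 8.15 and 8.14 after TAC. The groups did not overlap, with a difference of 0.45 (SE 0.15, limma's unadjusted p = 0.0220, adjusted p = 0.542).

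The cytoskeletal linker Epb41l3 was higher by 0.26 (SE 0.07, adjusted p = 0.516 in limma) and the scaffold Dlg4, known as PSD-95, by 0.56 (SE 0.17, adjusted p = 0.516), both with groups apart. Dlg4 was also the outside gene with the largest difference. In the list of Gq receptors and PIP2 enzymes that control the M-current, 12 of 15 named genes were tested. Of these the phospholipase Plcb1 was higher by 0.24 (SE 0.10, limma's unadjusted p = 0.0482), while Gna11 was at -0.17 and Plcb4 at 0.13.

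The G protein subunits and regulators of GIRK control were all tested, 12 of 12, with a median of -0.01 and none at an unadjusted p under 0.05. Gnb1 was at 0.34, Gnb4 at 0.16 and Gnai3 at 0.08. Of the auxiliary proteins, 5 of 11 named were tested. The Kv4 partner Dpp6 was at 0.08 and the membrane-contact protein Vapa at 0.08. Abcc9, the sulphonylurea receptor of vascular ATP-sensitive channels, was at 0.32 (SE 0.19), with its highest value, 5.05, on TAC B. The mural marker sum, mostly Rgs5, was also highest there. The part of mural cells in the Abcc9 value was not tested.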

How the data were processed

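RNA of both stellate ganglia of 1 animal was hybridised to 1 mouse genome array. The authors deposited 1 linear intensity for each probe set and array, made with GCRMA (background correction, normalization between arrays, probe set summary), per the submitters' processing notes, with no version given in the sources used here. GCRMA compresses values near background and so understates the change of dim genes. Values were log2-transformed without a pseudocount. The 64 control probe sets were left out, as were probe sets with a mean log2 under 4, which left 17550 of 45037. Symbols came from GEO's platform annotation, where 34945 probe sets had 1 symbol, 932 had several and the rest had none. All 84 member symbols were found among the 98 Kcn genes of the RefSeq table (GRCm38.p6).

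TAC and sham were compared with limma (3.58.1, R 4.3.3) by lmFit and eBayes over all tested probe sets, two-sided, with Benjamini-Hochberg adjustment and a threshold of 0.05. SEs are moderated. Background shares are over 9955 genes, each by its probe set of highest mean. An exact permutation test of 3 against 3 cannot go below p = 0.1. The number of arrays limits precision. That each array is a separate animal comes from the labels' protocols.

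The members, the classes and the outside lists were chosen with earlier results of these data known. Every tested member is named. Values on every array are given for the 16 members of smallest p and for a set of channels known from sympathetic neurons, vessels and glia, and of each outside list the 3 members of smallest p are named. The second Kcnn4, Kcnj6, Kcnab2 and Kcnq3 probe sets and Kcnab1 were picked out after their values were seen. The limma fit was checked on simulated arrays with independent noise and planted changes larger than any member difference. That check does not cover differences of the size reported here. Alternatives were no floor, a floor of 6, a trended robust prior, array weights, quantile normalization, the mean of a gene's probe sets, the title letter as a block, each array left out, and sham C and TAC B left out together. Marker sums without Npy and without Fabp7 were added after the data had been examined. Figures were drawn with matplotlib 3.10.9.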

Additional observations from a re-analysis of the deposited data

How the results depend on the processing

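The count of called potassium channel genes was 0 in each of the 14 alternatives, as was that of the outside genes, and the smallest adjusted p of a member was 0.238, with no floor. At an unadjusted p under 0.05, the 6 members became 17 of 84 with no floor, 2 with a floor of 6, 3 with the title letter as a replicate block, 3 without sham C and TAC B, and 1 to 5 with 1 array left out. In the first 4 of these the members' shares were 20.2%, 9.52%, 9.68% and 9.68%, against 16.4%, 9.70%, 7.11% and 5.16% of all tested genes. The count with groups apart, 5, became 48 of 84 with no floor, 2 with a floor of 6, 12 without sham C and TAC B, and 5 to 12 with 1 array left out. Fewer arrays separate by chance more often: without sham C and TAC B, 37.8% of all tested genes were apart. With no floor it was 42.3%. The members' median difference was 0.0850 without sham C and TAC B and -0.0483 to 0.0742 with 1 array left out. None of the 6 changed sign in any alternative that measured it, but they were picked by p in these same data. The groups of Kcnq5, Kcnc4, Kcnk2 and Kcnj13 did not overlap, so leaving out arrays could not change their sign. Of the 31 members, 16 changed sign in at least 1 alternative, all with differences of at most 0.17 in size. Kcnq5 stayed under an unadjusted p of 0.05 in 13 of 14 alternatives, Kcnc4 in 11 of 14, Kcnd3 in 7 of 13, Kcnk1 in 6, Kcnk2 in 5 and Kcnj13 in 4 of 13. The cause of these changes was not tested. The title letters share only a letter: deviations of same-lettered arrays correlated at 0.08, -0.0031 and -0.17.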

Other observations

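Of the 53 member genes under the floor, 51 had a lower mean on the TAC arrays, or 96.2%, with a median difference of -0.05 on the log2 scale. Among all 8238 dim named genes, 87.1% were lower, with a median of -0.04. Over the probe sets that stood for these genes, the largest difference was that of Kcnab1, a Kv1 beta subunit, which measured 3.89, 3.70 and 3.43 in the sham ganglia and 3.47, 3.29 and 2.84 after TAC. Its groups overlapped, and all 6 values lay under the floor. The dimmer Kcnj6 probe set was at -0.66, which rested on sham C.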
